A study of Mus musculus with 10 samples.

Results

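The 10 genes described here are Notch receptors (Notch1, Notch2, Notch3, Notch4), Notch ligands (Jag1, Jag2, Dll1) and HES and HEY target genes (Hes1, Hey2, Heyl), measured in whole mouse lung. They were found by symbol among the 27179 Entrez genes of the count table, all 10 were present, and all 10 passed the filter on low counts that left 15301 genes. The genes were chosen by name with the measured difference between knockout and control lungs already in view, and Notch3 was singled out for comparison with the others in the same way. Their differences between the groups are therefore given as a description, and nothing rests on a test of them.

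The series compared 5 control mice (Flox: Shh +/+, IRE1α fl/fl) with 5 mice labelled EpithelialKO (Shh Cre/+, IRE1α fl/fl). Ern1 encodes IRE1α, the endoplasmic reticulum stress sensor, and both groups carry the floxed alleles. Cre sits at the Shh locus, which is active in the developing lung epithelium, so 1 Shh allele carries Cre in the EpithelialKO mice only. Effects of Cre, of that allele and of Ern1 loss cannot be told apart. The labels give no age, sex, batch or treatment. Each mouse gave 1 library of 14983829 to 21224412 counts. Levels are given as CPM, the counts scaled to a common library size after TMM normalization between mice. Ern1 itself averaged 16.8 CPM in the Flox mice (SD 5.28) and 17.3 CPM in the EpithelialKO mice (SD 6.52), and Shh 17.4 and 17.1 CPM (SD 4.86 and 5.54). Non-epithelial cells retain Ern1 and contribute to these counts, which also cover the whole gene, so the genotype is not checked by them. Flox mice 4 and 6 had 3949 and 4866 counts of Xist, the RNA of the inactive X chromosome, against 2 to 61 in the other mice. The log2 fold change of each of the 10 genes is therefore also given without these mice.

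Notch receptors are cleaved when a ligand on a neighbouring cell binds them, first by an ADAM protease and then by γ-secretase, and the freed intracellular domain joins RBPJ and a Mastermind protein to switch on HES and HEY genes. HES and HEY proteins are basic helix-loop-helix repressors. In the lung, Notch signalling favours club over ciliated cells in the airway epithelium, shapes arteries through Notch1, Notch4 and their ligands in endothelium, and maintains smooth muscle and pericytes through Notch3, the receptor of these mural cells.

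Promoter sequence was taken from RefSeq (GRCm38.p6) for the receptor on which the results turn and for the HEY gene that differed from Heyl in direction. RefSeq windows were matched for 8 of the 10 genes; Hes1 and Heyl were not matched. The 250 bases before an annotated start were searched on both strands for TGGGAA, the core of the RBPJ motif, and for CACNAG, the N-box that HES repressors bind. Capitals mark the matches, which did not overlap. Hey2 is read from chr10:30842784-30843033 and Notch3 from chr17:32166891-32167140, both on the minus strand.
Hey2: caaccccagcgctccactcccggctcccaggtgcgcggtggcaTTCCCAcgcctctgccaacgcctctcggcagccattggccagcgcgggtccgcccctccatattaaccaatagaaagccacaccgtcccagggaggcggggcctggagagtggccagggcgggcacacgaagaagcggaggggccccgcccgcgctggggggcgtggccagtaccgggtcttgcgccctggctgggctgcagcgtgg
Notch3: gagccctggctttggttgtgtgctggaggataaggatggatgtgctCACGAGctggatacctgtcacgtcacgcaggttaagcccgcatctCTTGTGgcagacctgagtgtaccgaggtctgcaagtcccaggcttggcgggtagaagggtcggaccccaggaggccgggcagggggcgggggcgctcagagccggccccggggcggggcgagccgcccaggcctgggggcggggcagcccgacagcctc
Hey2 was the only gene of the 8 with the RBPJ core in this window, as its reverse complement beginning 207 bases before the start. The core was present in 21.6% of all 32851 promoter windows of this length. The Notch3 window held 2 N-box matches, beginning 204 and 159 bases before the start, and no RBPJ core. At least 1 N-box was present in 36.7% of all windows and at least 2 in 8.18%. The Notch1 and Notch2 windows held 1 each. A match is only a description of the letters.

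Notch3 (Entrez 18131, GRCm38 chromosome 17, 32120820 to 32166896) was at 63.6, 48.7, 48.8, 48.8 and 48.1 CPM in Flox mice 2, 3, 4, 5 and 6. It was at 30.5, 36.2, 38.2, 30.3 and 27.4 CPM in EpithelialKO mice 17, 18, 20, 21 and 22. All 5 EpithelialKO values lay below all 5 Flox values, and 4 of the Flox values lay within 1 CPM of each other, with mouse 2 above them. The group means were 51.6 ± 6.71 and 32.5 ± 4.51 CPM (SD, n = 5 each). On the log2 scale EpithelialKO over Flox came to -0.67 ± 0.12 (SE), with a 95% interval from -0.92 to -0.41. Leaving out Flox mouse 2 gave -0.58, and the value was -0.72 without Flox mice 4 and 6. Of the 10 genes, Notch3 alone had groups that did not overlap, in the direction in which 1.48% of all tested genes did not overlap.

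The other receptors were nearer to equal. Notch1 (Entrez 18128, chromosome 2, 26457902 to 26503822), a receptor of endothelium, lymphocytes and many progenitor cells, was at 102, 89.6, 77.7, 88.5 and 93.0 CPM in Flox mice 2 to 6 in label order. In EpithelialKO mice 17, 18, 20, 21 and 22 it was at 60.6, 71.7, 52.0, 83.4 and 78.6 CPM. Mice 21 and 22 lay within the Flox range and the other 3 EpithelialKO mice below it, and the log2 fold change was -0.38 ± 0.12 (SE), or -0.43 without Flox mice 4 and 6. Notch4 (Entrez 18132, chromosome 17, 34564286 to 34588543), a largely endothelial receptor, was at 116, 105, 110, 123 and 109 CPM in Flox mice 2 to 6. It was at 87.8, 110, 92.4, 89.7 and 73.4 CPM in EpithelialKO mice 17, 18, 20, 21 and 22, so that mouse 18 alone reached the Flox range. The log2 fold change of Notch4 was -0.32 ± 0.10 (SE), or -0.34 without Flox mice 4 and 6. Notch2 (Entrez 18129, chromosome 3, 98013538 to 98150367), a receptor used by the airway epithelium among other tissues, had means of 82.6 ± 5.74 and 82.4 ± 6.15 CPM (SD, n = 5 each). Its groups covered nearly the same range, 77.6 to 92.4 and 74.2 to 89.4 CPM, and the 95% interval of its log2 fold change ran from -0.19 to 0.18. Without Flox mice 4 and 6 the Notch2 value was 0.03.

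**Figure D1:**
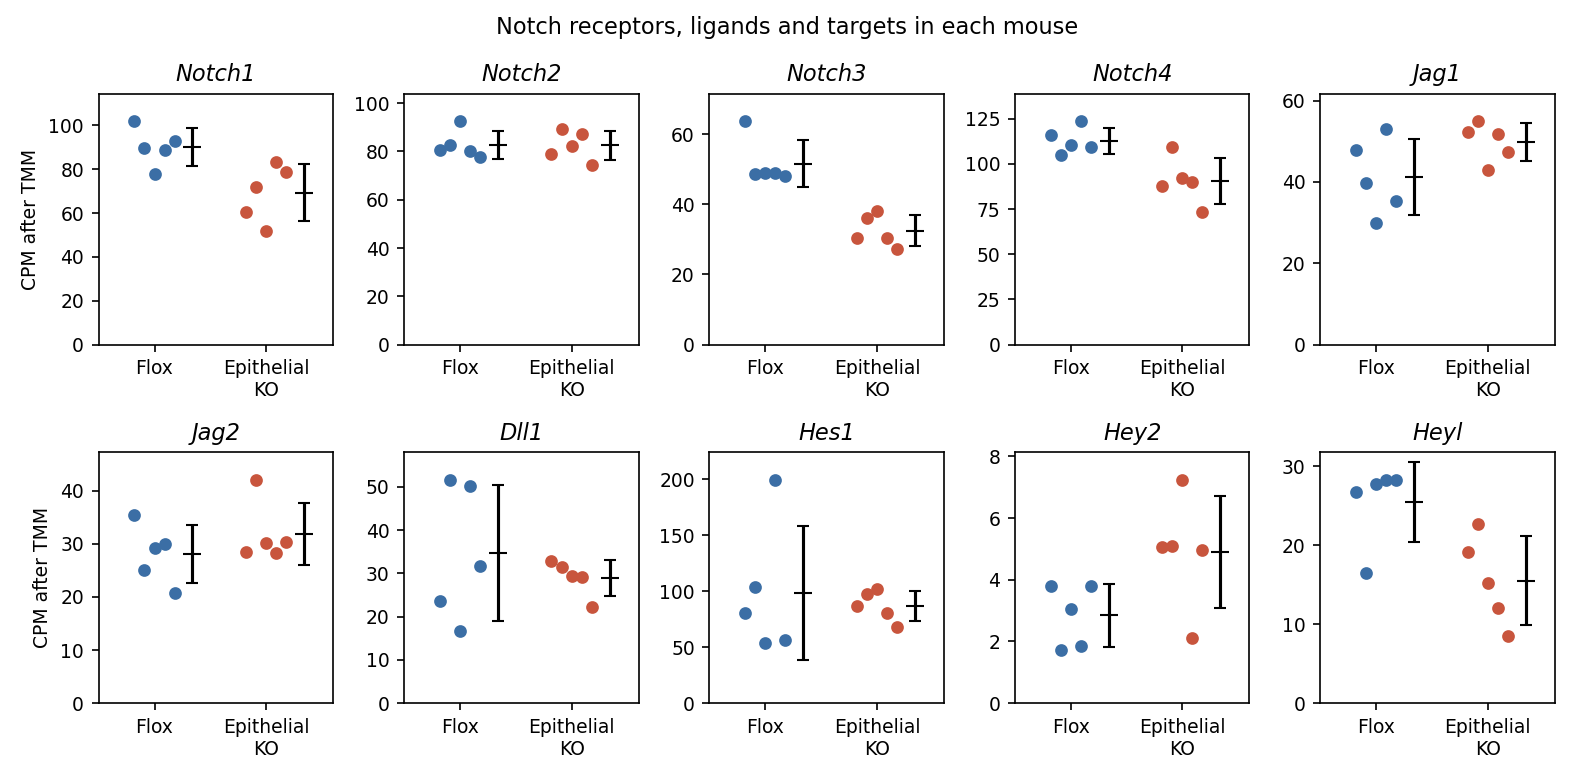
Level of each of the 10 Notch genes in CPM after TMM scaling (y axis from 0, 1 scale per gene), with 1 point per mouse, Flox in blue and EpithelialKO in red; the cross and bar give the mean and SD of 5 mice. For Notch3 the EpithelialKO points, 27.4 to 38.2 CPM, all lie below the Flox points, 48.1 to 63.6 CPM, whereas for the other 9 genes the groups overlap.

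The ligands gave small or uncertain differences. Jag1 (Entrez 16449, chromosome 2, 137081451 to 137116520), a ligand of endothelium, smooth muscle and airway, ranged from 29.9 to 53.1 CPM in Flox and from 42.9 to 54.9 CPM in EpithelialKO, and its log2 fold change was 0.27 ± 0.14 (SE). All 5 EpithelialKO mice lay above the Flox mean of 41.2 CPM. The value was 0.09 without Flox mice 4 and 6, which had the lowest Jag1 levels, 29.9 and 35.4 CPM. Jag2 (Entrez 16450, chromosome 12, 112907803 to 112929812), the other Jagged ligand, ranged from 20.8 to 35.4 CPM in Flox and from 28.3 to 42.0 CPM in EpithelialKO, with 0.18 ± 0.15 (SE). Without EpithelialKO mouse 18, the highest, the Jag2 value was 0.06, without Flox mouse 6 it was 0.09, and without Flox mice 4 and 6 it was 0.08. Dll1 (Entrez 13388, chromosome 17, 15367354 to 15376932), a Delta-like ligand, spread from 16.7 to 51.6 CPM in Flox and from 22.1 to 32.9 CPM in EpithelialKO. The 5 EpithelialKO mice lay inside the Flox range, and the log2 fold change was -0.26 ± 0.27 (SE). For Dll1 this value depended on single Flox mice, at -0.07 without mouse 3, -0.09 without mouse 5 and -0.44 without mouse 4, and it was -0.52 without mice 4 and 6.

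The 3 target genes did not share a direction. Heyl (Entrez 56198, chromosome 4, 123233556 to 123249870), a HEY repressor known as a target of Notch signalling in vascular mural cells, was at 26.7, 16.5, 27.8, 28.3 and 28.2 CPM in Flox mice 2, 3, 4, 5 and 6. It was at 19.1, 22.7, 15.2, 12.1 and 8.56 CPM in EpithelialKO mice 17, 18, 20, 21 and 22. Flox mouse 3 lay inside the EpithelialKO range and the other 4 Flox mice above it. Group means of Heyl were 25.5 ± 5.08 and 15.5 ± 5.60 CPM (SD, n = 5 each), and its log2 fold change was -0.71 ± 0.23 (SE). Leaving out EpithelialKO mouse 22 gave -0.56, and leaving out Flox mice 4 and 6 gave -0.61. Hey2 (Entrez 15214, chromosome 10, 30832359 to 30842783), a HEY repressor of arteries and heart, was at 3.82, 1.72, 3.04, 1.86 and 3.81 CPM in Flox and 5.06, 5.11, 7.24, 2.11 and 4.96 CPM in EpithelialKO, in the same mouse order. Its log2 fold change was 0.77 ± 0.34 (SE), and EpithelialKO mouse 21 alone lay within the Flox range. The Hey2 value was 0.98 without Flox mice 4 and 6. Hey2 was the least abundant of the 10, with 273 counts over the Flox and 421 over the EpithelialKO mice. Hes1 (Entrez 15205, chromosome 16, 30065357 to 30067796), a widely expressed repressor and target of Notch, had the widest spread. It ranged from 53.8 to 199 CPM in Flox, with mouse 5 highest and mouse 3 next at 104 CPM, and from 68.5 to 102 CPM in EpithelialKO. The Hes1 log2 fold change was -0.18 ± 0.35 (SE). It moved in both directions with the Flox mice left out, to 0.24 without mouse 5, -0.34 without mouse 4, -0.33 without mouse 6 and -0.55 without mice 4 and 6.

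In the fit over all genes, edgeR's quasi-likelihood test with Benjamini-Hochberg adjustment called none of the 10 genes at an adjusted p under 0.05, where 0.0392% of all tested genes were called. Notch3 had the lowest adjusted p of the 10, 0.0548, and the others lay between 0.213 and 0.994. At an unadjusted p under 0.05, Notch1, Notch3, Notch4 and Heyl were lower and Hey2 was higher in EpithelialKO, in directions that held 6.52% and 5.87% of all tested genes. The Wald test of DESeq2 called Notch3 of the 10 (adjusted p = 0.00043), among 1.82% of all tested genes. Because the genes were chosen on this contrast, nothing is read from these counts. The median log2 fold change was -0.22 over the 10 genes and 0.00084 over all tested genes. The difference between the log2 fold change of Notch3 and the median of the other 9 was -0.48. It ranged from -0.67 without Flox mouse 5 to -0.33 without Flox mouse 2.

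**Figure D2:**
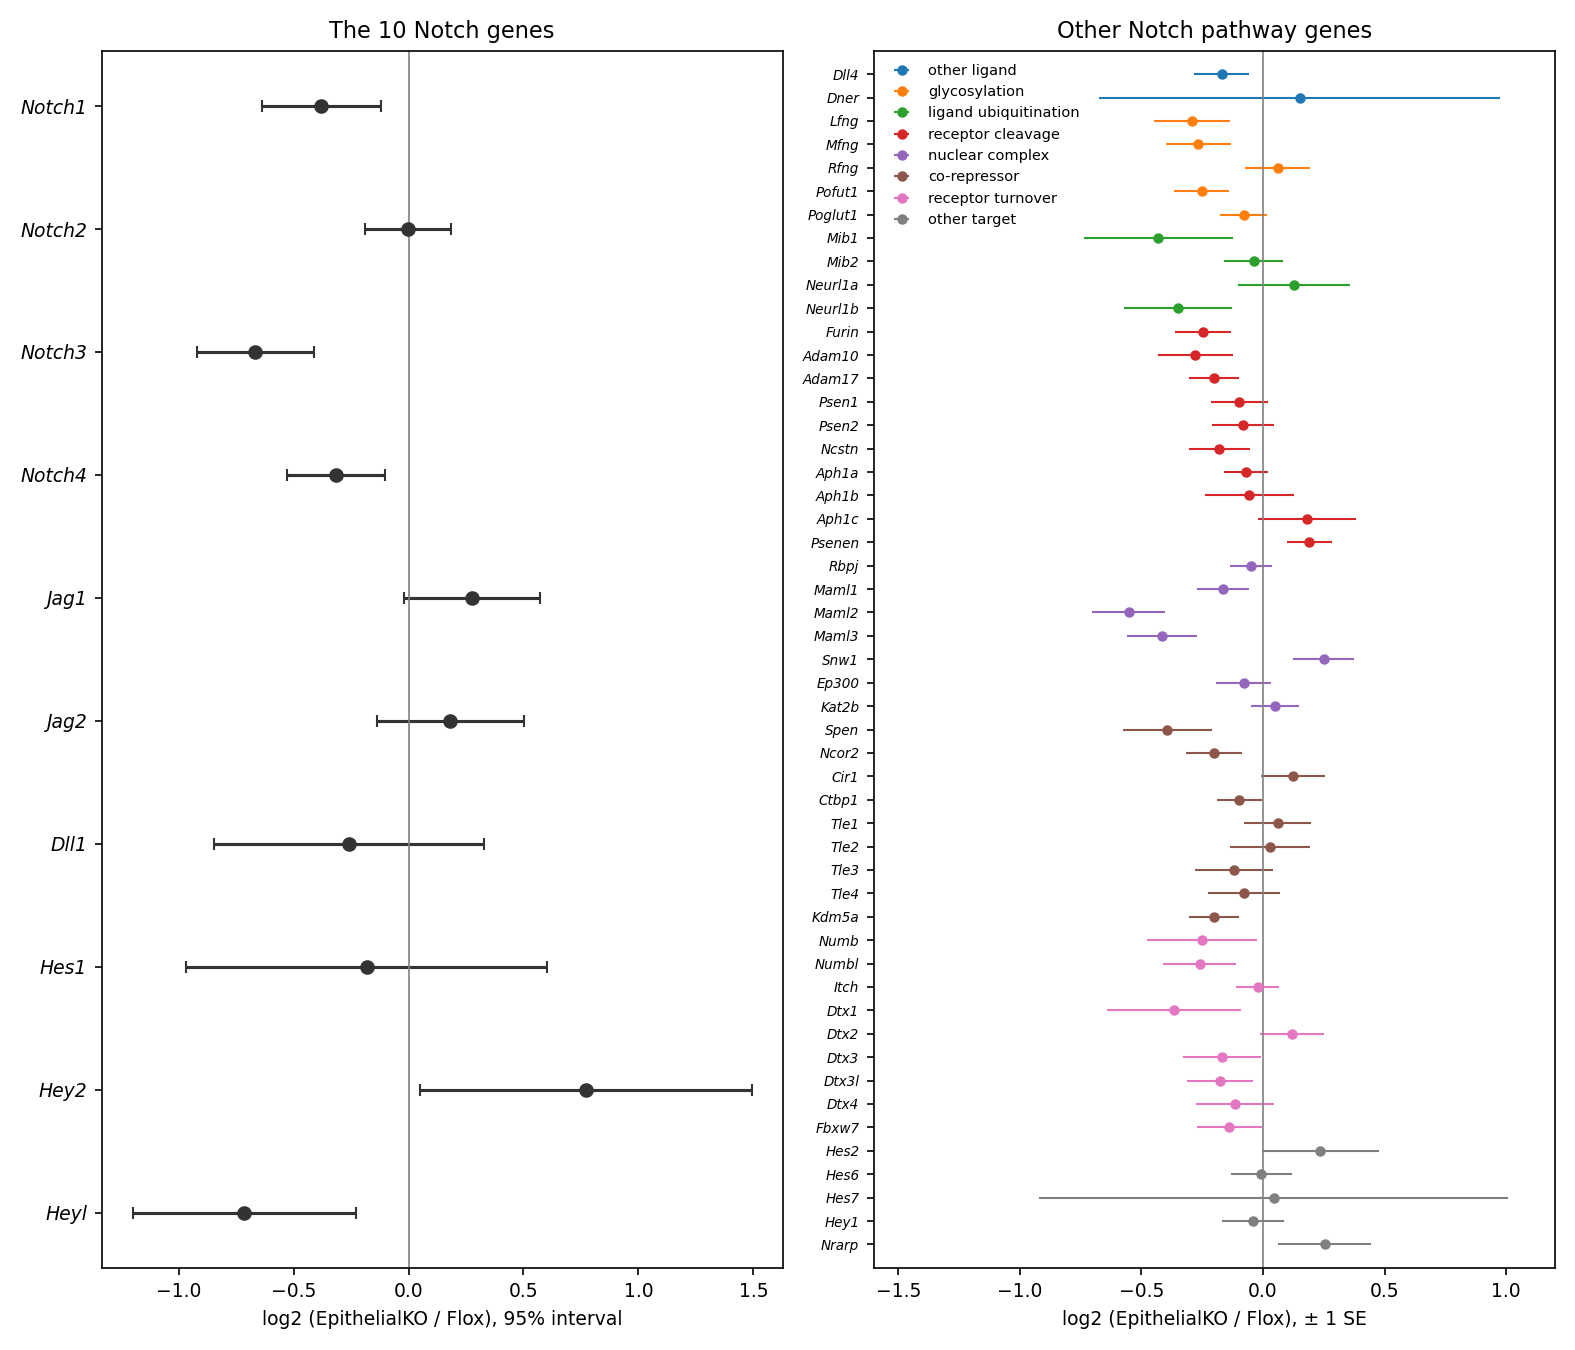
Log2 fold change of EpithelialKO over Flox (x axis) for the 10 Notch genes with 95% intervals (left) and for 51 other tested Notch pathway genes with 1 SE, coloured by role (right). Notch3 at -0.67 and Heyl at -0.71 lie farthest to the left on the left side and Hey2 at 0.77 farthest to the right, while 37 of the 51 pathway genes lie below 0, down to Maml2 at -0.55.

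Levels of different genes can be compared only per length, so CPM was divided by the length of the exons of each gene (GENCODE M21, GRCm38). On this scale, CPM per kb, Hes1 was highest in Flox at 67.3 ± 40.8 and Hey2 lowest at 1.12 ± 0.398 (SD, n = 5). Among the receptors, Notch4 stood first at 17.1 ± 1.08, then Notch1 at 9.50 ± 0.914, Notch2 at 7.87 ± 0.547 and Notch3 at 6.44 ± 0.838 CPM per kb. Dll4, the endothelial Delta-like ligand, and Hey1, the third HEY gene, are not among the 10 and were added to this ranking after their values were seen. Dll4 was at 13.6 ± 1.78 and Hey1 at 44.1 ± 7.78 CPM per kb in Flox, against 9.71 ± 4.38 for Dll1 and 5.62 ± 1.12 for Heyl. The Flox mice overlapped between Dll4 and Dll1 and were apart between Hey1 and the other HEY genes. Between neighbours in the order of these 12 genes the Flox mice were fully separated in 2 places, Hey1 above Notch4 and Jag2 above Hey2, and overlapped in the others. In EpithelialKO, Notch3 was at 4.06 ± 0.562 CPM per kb and ranked 10 of 12.

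**Figure D3:**
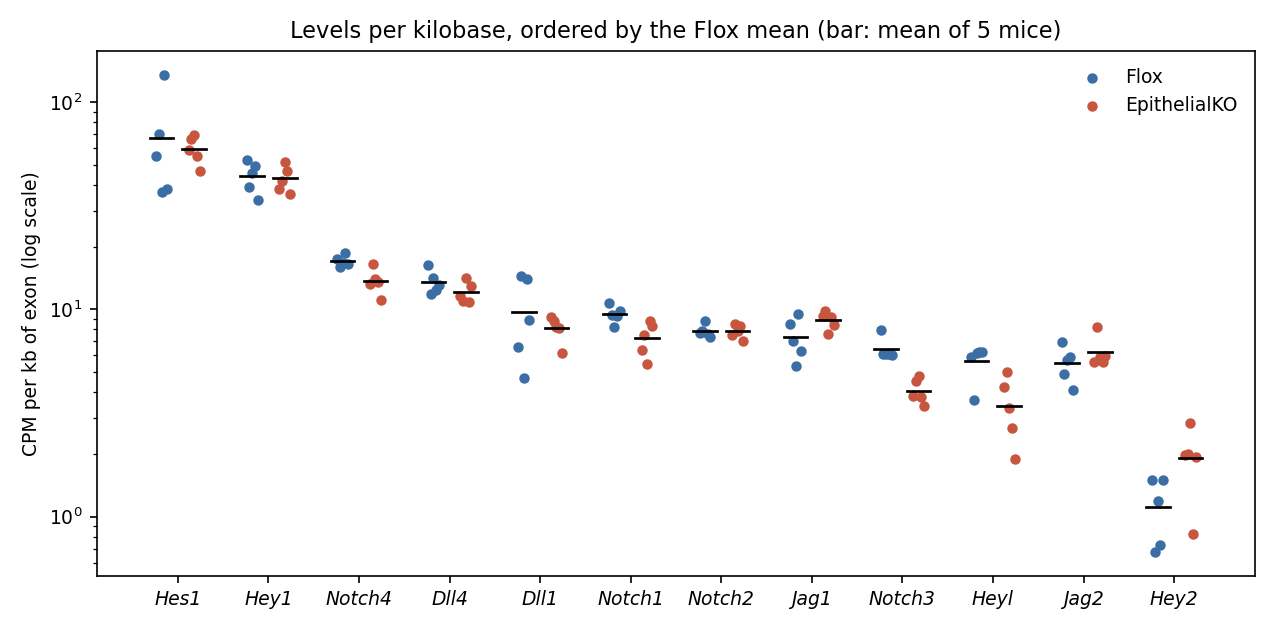
Level per kilobase of exon (y axis, CPM per kb, log scale) of the 10 genes with Dll4 and Hey1, ordered by the Flox mean, with 1 point per mouse (Flox blue, EpithelialKO red) and a bar at each mean of 5 mice. Hes1 and Hey1 stand above the rest at Flox means of 67.3 and 44.1 CPM per kb, and Hey2 stands lowest at 1.12.

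The receptors were also compared as shares, with no test. As a share of the 4 receptors summed per kb, Notch3 made up 15.7% ± 1.37 in Flox and 12.3% ± 1.50 in EpithelialKO (SD, n = 5 each). The shares in the mice ranged from 14.6% to 18.1% and from 11.0% to 14.8%, so EpithelialKO mouse 20 reached the Flox range. Notch2, whose CPM was nearly equal in the groups, made up 19.3% ± 1.82 and 23.9% ± 0.614. These shares ranged from 17.5% to 22.1% in Flox and from 22.9% to 24.4% in EpithelialKO and did not overlap. The shares of a mouse add up to a fixed total, so the Notch2 share also depends on the levels of Notch1, Notch3 and Notch4. Notch4 was the largest share in both groups, at 41.8% ± 1.87 and 41.6% ± 3.13, and Notch1 followed in Flox at 23.2% ± 1.73, with 22.2% ± 4.30 in EpithelialKO.

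Whole lung mixes cell types, and fewer cells of a type and less RNA per cell cannot be told apart in these libraries. Most markers of the mural cells that carry Notch3 also had negative log2 fold changes. Of the tested pericyte markers 11 of 13 were negative, with a median of -0.15, and their summed level ranged from 593 to 738 CPM in Flox and from 474 to 761 CPM in EpithelialKO. Pdgfrb, the PDGF receptor of pericytes and fibroblasts, had -0.62 ± 0.16 (SE), the potassium channel gene Kcnj8 -0.61 ± 0.18, and the guanylate cyclase subunit gene Gucy1a1 -0.38 ± 0.14. These are named because they had the lowest p on the list. The positive pericyte markers were Rgs5, at 0.27 ± 0.43, and Higd1b, at 0.17 ± 0.16. Of the smooth muscle markers 12 of 12 were negative, with a median of -0.36 and sums of 724 to 879 and 601 to 787 CPM. These sums overlapped, whereas the mean log2 CPM of the markers, also not tested, did not. It was 4.94 to 5.30 in Flox and 4.40 to 4.82 in EpithelialKO. Among these markers were the actin-binding Synpo2 at -0.996 ± 0.222, the smooth muscle myosin Myh11 at -0.66 ± 0.21 and the myosin kinase Mylk at -0.38 ± 0.10. In edgeR 0 pericyte and 0 smooth muscle markers were called, with 4 of 13 and 7 of 12 at an unadjusted p under 0.05, all lower, beside 6.52% of all tested genes. DESeq2 called 2 pericyte markers (Pdgfrb and Kcnj8) and 3 smooth muscle markers (Synpo2, Myh11 and Mylk), all lower, beside 1.82% of all tested genes in either direction. No marker on any of the lists used here was at 0 in every mouse. The part of mural cell number in the Notch3 difference was not tested.

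Notch3 was also compared with these markers within each mouse, as its log2 CPM minus the mean log2 CPM of the tested markers. Relative to pericyte markers Notch3 was at 1.20, 1.05, 0.93, 0.85 and 0.94 in Flox mice 2 to 6 and at 0.42, 0.60, 0.44, 0.70 and 0.64 in the EpithelialKO mice in label order. The groups did not overlap, and their means differed by -0.43. Notch3 by itself also had groups that did not overlap. The log2 fold changes of the pericyte markers differed widely, from -0.62 for Pdgfrb and -0.61 for Kcnj8 to 0.27 for Rgs5. The first 2 are near the -0.67 of Notch3, so the measure depends on the markers averaged. Relative to smooth muscle markers the Flox mice ranged from 0.48 to 0.70 and the EpithelialKO mice from 0.12 to 0.77, an overlap, with a difference of -0.19. Relative to the mean of Notch1, Notch2 and Notch4 the means were -0.87 ± 0.14 and -1.30 ± 0.22 (SD, n = 5 each). EpithelialKO mouse 20, at -0.94, lay within the Flox range of that measure. Against endothelial markers the groups did not overlap, at -2.59 to -2.19 in Flox and -2.86 to -2.75 in EpithelialKO. Against arterial and fibroblast markers they overlapped, with differences of -0.39 and -0.32. Against the mean of the other Notch genes described here the groups did not overlap, with a difference of -0.62. Nor did they overlap against pan-epithelial markers, whose own log2 fold changes were positive, with a difference of -1.04. All of these use the contrast on which Notch3 was chosen and have no test. The share of all tested genes that would be apart on such measures was not computed, so nothing is read from the separations.

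**Figure D4:**
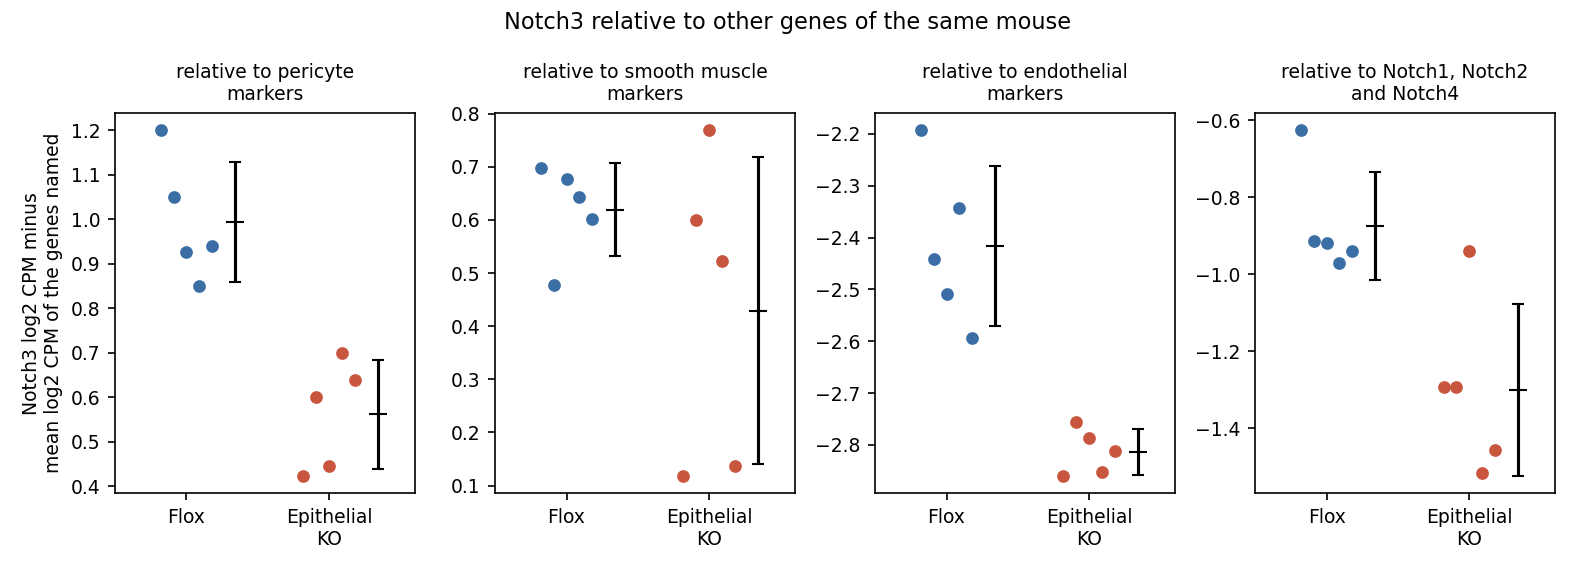
Notch3 log2 CPM minus the mean log2 CPM of pericyte, smooth muscle or endothelial markers or of the other receptors in the same mouse (y axes in log2 units, a separate scale in each panel), 1 point per mouse, with the mean and SD of 5 Flox (blue) and 5 EpithelialKO (red) mice. The groups are apart relative to pericyte markers (0.85 to 1.20 against 0.42 to 0.70) and endothelial markers, and overlap relative to smooth muscle markers and the other receptors. Notch3 by itself is also apart between the groups.

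Markers of other cell types were read beside the Notch genes in the same way. Endothelial markers, of the cells that carry Notch1 and Notch4, had 13 of 14 negative log2 fold changes, a median of -0.30 and sums of 4565 to 5340 CPM in Flox and 3272 to 4654 CPM in EpithelialKO. Ptprb had -0.51 ± 0.12 (SE), Kdr -0.45 ± 0.11 and Tie1 -0.40 ± 0.11. Arterial markers, several of which depend on Notch in endothelium, had 8 of 10 negative and a median of -0.30. Their sums of 902 to 1060 and 624 to 856 CPM, which were not tested, did not overlap. The separation depended on the measure, since their mean log2 CPM overlapped, at 4.97 to 5.49 in Flox and 4.81 to 5.12 in EpithelialKO. The arterial ephrin Efnb2 stood at 218 ± 23.8 and 152 ± 14.2 CPM (SD, n = 5 each), with -0.52 ± 0.10 (SE). The gap junction gene Gja5 had -0.67 ± 0.19 and the chemokine gene Cxcl12 -0.41 ± 0.14. Fibroblast markers had 11 of 12 negative (median -0.35). The T and NK cell markers had 11 of 11 negative (median -0.20), and Il2rb among them was called lower (edgeR adjusted p = 0.0272). In the other direction, 12 of 12 pan-epithelial, 10 of 10 club and 12 of 12 ciliated markers were positive, with medians of 0.36, 0.49 and 0.46. The sums of the pan-epithelial markers, also not tested, did not overlap, at 1073 to 1312 CPM in Flox and 1350 to 1749 CPM in EpithelialKO. Cardiac markers had 5 of 8 negative (median -0.04) and adipose markers 5 of 5 positive (median 0.58). Il2rb was the only marker that edgeR called on these 11 lists. Beside the mural markers above, and with 1.82% of all tested genes called in either direction, DESeq2 called 3 endothelial, 2 arterial, 4 fibroblast and 1 T and NK cell markers lower. It called 2 pan-epithelial and 3 club markers higher, and 0 ciliated, 0 cardiac and 0 adipose markers. The part of cell composition in the Notch values was not tested.

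The rest of the pathway was read from a list of 56 genes, of which 51 were tested. None of the 51 was called in edgeR, where 0.0392% of all tested genes were called. An unadjusted p under 0.05 was found for 5 of the 51, all lower in EpithelialKO, where 6.52% of all tested genes were lower by that rule. The log2 fold change was negative for 37 and positive for 14, with a median of -0.10. Maml2, a Mastermind co-activator, had the lowest p. It was at 31.7, 29.7, 26.7, 47.1 and 31.5 CPM in Flox mice 2 to 6 and at 22.0, 19.9, 27.1, 21.3 and 23.3 CPM in EpithelialKO mice, with -0.55 ± 0.15 (SE, edgeR adjusted p = 0.153). EpithelialKO mouse 20 exceeded Flox mouse 4 and otherwise the groups were apart. Its relative Maml3 had groups that did not overlap, at 19.8 to 22.1 CPM in Flox and 10.9 to 17.5 CPM in EpithelialKO, with -0.42 ± 0.14. This was 1 of the 51 genes, where 1.48% of all tested genes had all EpithelialKO mice below all Flox mice. Nothing is read from it. Maml2 was called lower by DESeq2 (adjusted p = 0.0383), and Maml3 was not (adjusted p = 0.121). Rbpj, the DNA-binding partner of all Notch receptors, was at 61.6 ± 3.00 and 59.6 ± 2.77 CPM (SD, n = 5 each) and was added after its values were seen.

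By role, 4 of 5 glycosylation genes, 8 of 10 receptor cleavage genes, 8 of 9 receptor turnover genes, 6 of 9 co-repressors, 3 of 4 ligand ubiquitination genes and 5 of 7 genes of the nuclear complex had negative log2 fold changes. Of all 15301 tested genes 7633 were negative. The medians of these roles ran from -0.25 to -0.08. All values come from the same 10 libraries, so the counts are not independent. The other tested target genes had 2 of 5 negative, with a median of 0.04, and the other tested ligands 1 of 2. Pofut1, which adds fucose to Notch, had -0.25 ± 0.11 (SE), and Mfng, a Fringe enzyme that extends that sugar, -0.27 ± 0.13. The co-repressor Spen had -0.39 ± 0.18 and the convertase Furin, which cuts the Notch precursor, -0.25 ± 0.11. The highest-ranked genes on the positive side by p were Psenen, a γ-secretase subunit, at 0.19 ± 0.09 and Snw1, a nuclear cofactor, at 0.25 ± 0.13. Nrarp, a feedback target of Notch, had 0.25 ± 0.19, the target-family gene Hes2 0.24 ± 0.24, Aph1c, of γ-secretase, 0.18 ± 0.20, and the co-repressor Cir1 0.12 ± 0.13. Hey1, the HEY gene with the highest level per kb, was at 107 ± 18.8 and 104 ± 15.1 CPM (SD, n = 5 each), with -0.04 ± 0.13, and Dll4 had -0.17 ± 0.11. Of the 5 genes that were not tested, Dll3, Dlk1, Dlk2, Hes3 and Hes5, each had a group mean under 1 CPM in both groups.

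Variation between mice of the same group does not use the contrast on which the genes were chosen. After each group mean was removed from log2 CPM, Notch3 was correlated over the 10 mice with the 9 other genes and 12 gene lists, as a description with no test. All values of a mouse come from 1 library and share its depth and cell make-up. Notch3 followed the mean of the pericyte markers (Pearson's r = 0.79, Spearman's rho = 0.85) and of the endothelial markers (r = 0.79, rho = 0.70). Without the 2 mice farthest from the median of Notch3, r was 0.74 for both lists. The mean of the pathway list came next (r = 0.72, rho = 0.68). With the smooth muscle markers r was 0.22 and rho 0.08, and r ran from -0.28 to 0.42 when any 1 mouse was left out. The arterial markers, also endothelial, had r = 0.03 and rho = -0.30, and the fibroblast markers r = -0.17 and rho = -0.39. For the remaining lists r lay between -0.20 (adipose) and 0.35 (club). Of the 9 genes Notch4 was closest (r = 0.62, rho = 0.72) and then Jag2 (r = 0.60, rho = 0.67). Heyl had r = 0.48 and rho = 0.28, and Hey2 had r = 0.48 and rho = 0.55. Without the 2 mice farthest from the median of Notch3, r was 0.74 for Heyl and 0.08 for Hey2. Many other genes followed Notch3 more closely than any of the 9 genes. The candidates were 13744 tested genes with a mean of at least 1 CPM that are not predicted models. Among them Notch4 ranked 681, Jag2 742, Heyl 1555 and Hey2 1580 by r. With the total count of the library Notch3 had r = 0.25 and rho = -0.04.

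Of 45 pairs among the 10 genes, 28 had a positive r, and 3 had an r above 0.7. Notch4 and Heyl had r = 0.81 and rho = 0.56, and r was 0.42 without the 2 mice farthest from the median of Notch4. Dll1 and Hes1 had r = 0.76 and rho = 0.89, and r stayed between 0.68 and 0.85 when any 1 mouse was left out. Jag1 and Hes1 had r = 0.73 and rho = 0.50, and r was 0.25 without the 2 mice farthest from the median of Jag1. Flox mouse 5 had the highest Hes1 of all mice, at 199 CPM, and the highest Jag1 of the Flox mice, at 53.1 CPM. The 6 genes most like Notch3 by this measure, among 13744 candidates, were Chmp7 (r = 0.95), Map4k2 (r = 0.94), Snx17 (r = 0.94), Hdac7 (r = 0.92), Tbx4 (r = 0.92) and the endothelial receptor gene Tie1 (r = 0.92). They were picked as the highest of many values over 10 mice, so their r is raised by that choice. It was not recomputed with mice left out.

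**Figure D5:**
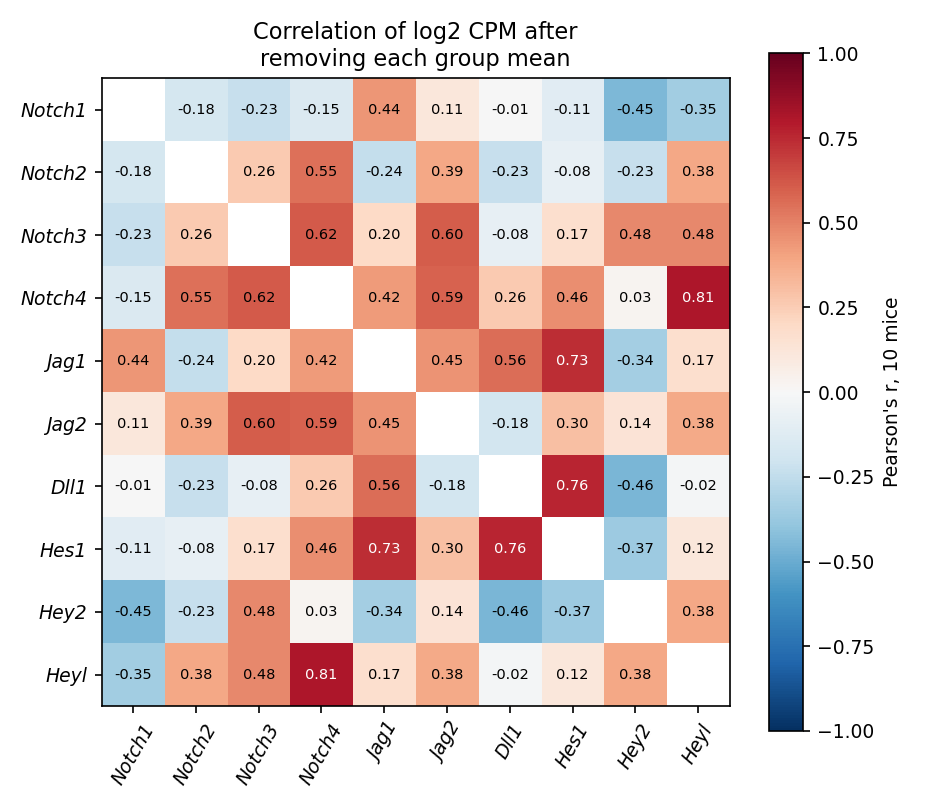
Pearson's r between the 10 Notch genes over 10 mice after removing the mean of each group from log2 CPM, with colour and number giving r for each pair. Notch4 with Heyl (0.81), Dll1 with Hes1 (0.76) and Jag1 with Hes1 (0.73) are the highest, and Notch3 is nearest to Notch4 (0.62) and Jag2 (0.60).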

How the data were processed

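Whole-lung RNA of 5 Flox and 5 EpithelialKO mice was sequenced after oligo(dT) selection and random priming, per the labels' protocols. The submitters' processing notes name cutadapt, HISAT2 and the build GRCm38. For the tool versions, the counting program, its annotation and its strand setting, the sources used here give nothing, so genes that overlap or resemble each other may share counts. The deposited table holds raw counts (whole numbers, 1 row per Entrez gene), as read from its values. Symbols and coordinates came from RefSeq GRCm38.p6, which matched 25275 of 27179 genes.

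Counts were filtered with filterByExpr, scaled by TMM and tested across all 15301 remaining genes with edgeR 4.0.16 (robust quasi-likelihood, a model with group alone, run under R 4.3.3). P-values were adjusted by Benjamini-Hochberg, and a gene was called at an adjusted p under 0.05. The fit was checked on simulated data. The simulated counts were drawn with the dispersions of the fit itself, so they cannot show whether its model suits these libraries. SE was derived from the F statistic. Log2 CPM used a prior count of 2. Alternatives were other scalings and count filters, DESeq2 1.42.0, limma-voom with sample weights (limma 3.58.1), a sex class from Xist counts as a covariate, and leaving out each mouse or Flox mice 4 and 6. Gene lengths were the union of GENCODE M21 basic exons. No 2 libraries agreed within counting noise (lowest chi-square per degree of freedom 17.0), so each mouse counted as 1 sample.

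The 10 genes, the pathway list and the marker lists were chosen with earlier results of these data known. The rule for named genes took the 10 genes, Ern1 and Shh, up to 6 pathway genes per direction with the lowest p, up to 3 markers per list by p, and the 6 genes most like Notch3 with a mean of at least 1 CPM that are not predicted models.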

Additional observations from a re-analysis of the deposited data

Results flagged for a closer look

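Of 26 sets of 5 mice examined (the 10 genes and 3 measures of Notch3 relative to other genes, in each group), 4 held a mouse far from the other 4 by Dixon's criterion, which flags about 5% of sets by chance. Notch3 in Flox mouse 2 stood at 63.6 CPM, above the other Flox mice at 48.1 to 48.8 CPM. In the same mouse Notch3 relative to the other receptors was -0.626 in log2 units, with the next Flox mouse at -0.915. This flag and the one before it rest on the same Notch3 value. The 26 sets are therefore not independent, and the 5% is not a strict yardstick for 4 flags. Jag2 in EpithelialKO mouse 18 stood at 42.0 CPM, against 28.3 to 30.3 CPM in the other EpithelialKO mice. Heyl in Flox mouse 3 stood at 16.5 CPM, against 26.7 to 28.3 CPM in the other Flox mice.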

How the results depend on the processing

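No paired analysis was possible because the groups have no mouse number in common. Over 18 alternatives, 7 of the 10 genes kept the sign of their log2 fold change in each. The exceptions were Notch2, near 0 throughout, Dll1 (0.03 under limma-voom) and Hes1 (0.23 under limma-voom and 0.24 without Flox mouse 5). Notch3 ranged from -0.73 to -0.58. The edgeR call count over all genes was 6. It was 279 in DESeq2, 32 in limma-voom, 34 with no count filter, 1 with sex class as a covariate, 0 without Flox mice 4 and 6 (1207 genes at an unadjusted p under 0.05) and 0 to 48 when 1 mouse was left out, with 48 without Flox mouse 5. Of the 10 genes, 0 were called in edgeR, 1 each in DESeq2, limma-voom and edgeR with no count filter, and 0 to 1 when 1 mouse was left out. In each of these cases the gene was Notch3 (adjusted p = 0.00043, 0.0311, 0.022, and 0.0339 without Flox mouse 5). Its adjusted p was 0.214 without Flox mice 4 and 6 and 0.167 with sex class. Of the pathway genes, 1 was called in DESeq2 and 0 in the others. Notch3 minus the median of the other genes was -0.68 under limma-voom and -0.67 to -0.33 when 1 mouse was left out. Notch3 minus the median of the pericyte markers was -0.51 and stayed between -0.60 and -0.44. The cause of these changes was not tested. Hey2, at 273 and 421 counts per group, has the least depth behind it.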
